A study of Mus musculus with 16 samples.

Results

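The miRNAs described here are mmu-miR-101a, mmu-miR-101b, mmu-miR-193, mmu-miR-193b, mmu-miR-365 and mmu-miR-455, 6 of the 611 mouse miRNAs on a liver array of 650 features. They were chosen by measured values of this data set, as hepatocyte miRNAs that were lower in some livers of phenobarbital-fed knockout mice, so their levels in that group are given as a description and without a test. miRNA levels were measured in liver RNA on 16 arrays, 4 in each of 4 groups of male C3H mice. CTNNB1KO phenobarbital mice lacked Ctnnb1 in hepatocytes and received 0.05% phenobarbital (PB) in the diet for 12 weeks. CTNNB1KO controls had the same deletion and a diet without PB, WT phenobarbital mice were wild type and received the same dose, and WT controls were wild type without PB. The labels name the control agent as water and the protocol as a PB-free diet. The knockout joined a Cre recombinase driven by the albumin promoter with a Ctnnb1 gene whose loxP sites lie around exons 3 and 6, and both lines had been backcrossed into C3H/N. The deletion is therefore directed at hepatocytes, and whether all other cells of the liver keep the gene was not measured. The labels state neither the age of the mice, nor whether WT mice carried a floxed allele or Cre, nor whether the 4 arrays of a group are 4 animals. The p-values therefore cover the variation among arrays alone, and part of it may be technical. Ctnnb1 mRNA is not measured by a miRNA array, and the deletion was not checked.

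A miRNA is cut from a hairpin transcript and guides the silencing complex to mRNAs, mainly through its seed, the bases 2 to 8 of the mature strand. Ctnnb1 encodes beta-catenin, the Wnt co-activator that maintains the perivenous gene programme of hepatocytes, and phenobarbital activates the nuclear receptor CAR, which drives drug-metabolising genes there. miR-101 represses the histone methyltransferase EZH2, shown in human cancer cells, and has been found at lower levels in human liver tumours. miR-193b and miR-365 come from one cluster and act in brown fat differentiation in mouse, and miR-455 also promotes brown fat differentiation in mouse.

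The mature sequences show which of the miRNAs a probe or a target could fail to separate. They are printed from RefSeq (GRCm38.p6) with the seed in capitals, and all 6 miRNAs were found there.
miR-101a-3p: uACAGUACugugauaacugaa
miR-101b-3p: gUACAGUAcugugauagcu
miR-193a-3p: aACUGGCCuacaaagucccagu
miR-193b-3p: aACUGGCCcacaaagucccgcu
miR-365-3p: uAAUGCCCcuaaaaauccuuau
miR-455-5p: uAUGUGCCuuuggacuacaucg
miR-455-3p: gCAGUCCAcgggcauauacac

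miR-101a-3p and miR-101b-3p share a run of 15 bases that begins at base 1 of miR-101a-3p and at base 2 of miR-101b-3p. Their seeds are therefore the same letters read 1 base apart, ACAGUAC and UACAGUA. Each occurred in 1 of the 1679 mature mouse miRNAs searched in the RefSeq table, of which 1 chromosome was left out. miR-193a-3p, the RefSeq entry matched to the array's miR-193, and miR-193b-3p have the same seed and differ at 3 bases. Among the 1679 searched, that seed was found in these 2 entries alone. The array name miR-455 does not say which arm of the hairpin it reports, so both arms are shown. Probe sequences were not used here, and cross-hybridisation between miR-101a and miR-101b was not tested.

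The 6 miRNAs are encoded at 5 places in the genome. Mir101a (mature strand chr4:101346957-101346977, minus strand) lies inside the lncRNA gene E130102H24Rik, between the coding genes Jak1 and Ak4. Mir101b (chr19:29135338-29135356, plus strand) lies inside the coding gene Rcl1. Mir193a (chr11:79712009-79712030, plus strand) is followed 14.4 kb downstream by Mir365-2 (chr11:79726467-79726488, plus strand), in the stretch between Rab11fip4 and Utp6. Mir193b (chr16:13449570-13449591, plus strand) is followed after 4.2 kb by Mir365-1 (chr16:13453895-13453916, plus strand), and both lie inside the lncRNA genes Gm32817 and Gm53058. The mature miR-365 from the 2 loci is the same sequence, so the array cannot assign its signal to either. Mir455 lies inside the coding gene Col27a1, with the 5p arm at chr4:63256867-63256888 and the 3p arm at chr4:63256904-63256924, plus strand.

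All values are deposited log2 expression values, in which a difference of 1 is nominally a doubling. The background was set from the 39 viral miRNA features on the array, whose mean values had a median of 3.23, and the 0.95 quantile of those means, 3.98, served as the dim floor; 141 mouse miRNAs had a group mean above it. Arrays of one group correlated at 0.966 to 0.996. CTNNB1KO phenobarbital replicate 4 had 100 mouse miRNAs above the floor, and the other arrays had 114 to 133. Its median over miRNAs above the floor was also lower, at 5.04 against 5.26 to 5.47 on the others. With each array centred on that median, its miR-101a moved from 7.90 to 8.23 and its miR-365 from 7.79 to 8.11. CTNNB1KO phenobarbital replicates 1 and 2 carried striated muscle miRNAs, with a mean of 7.46 and 5.56 over 3 of 4 listed markers, against 3.23 to 3.53 on the other 14 arrays. These 3, miR-1, miR-133a and miR-133b, passed the floor only through this group. The remaining marker, miR-206, measured 3.45 on replicate 1 and 4.08 on replicate 2, against 3.22 to 3.54 on the other 14 arrays. For comparison, 12 other hepatocyte-abundant miRNAs were listed, miR-122 and miR-192 among them. Whether they are restricted to hepatocytes was not tested, so their mean does not measure the share of hepatocytes. miR-122 was 15.28 on all 4 WT controls, the maximum of those arrays, so a change in it could be missed. All 12 lay above the floor, and their mean was 9.80 to 9.99 in CTNNB1KO phenobarbital livers, 9.71 to 10.02 in CTNNB1KO controls, 9.91 to 9.98 in WT phenobarbital livers and 9.82 to 9.91 in WT controls.

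Abundance in liver RNA held for 4 of the 6 miRNAs on the array's own scale, without correction for probe response. Which cells of the liver carry them was not measured. By group mean, miR-101a ranked 29 to 31 of the 611 mouse miRNAs in the 4 groups, miR-101b ranked 25 to 35, miR-365 ranked 28 to 34 and miR-193 ranked 44 to 52. miR-455 was close to background, at rank 92 to 123, with 11 of 16 arrays above the floor. miR-193b lay below the floor on every array, at 3.25 to 3.79, so its values have no measured order and the label of a hepatocyte-abundant miRNA does not hold for it here. The array's miR-193 lay at 6.12 to 7.26 on the same arrays, which sets apart the probes of these miRNAs that share a seed. The opposite arms miR-101a*, miR-193* and miR-455* were measured too and lay below the floor in every group. In these bulk liver samples, fewer cells of a type and less RNA per cell cannot be told apart.

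miR-101a was nearly constant in WT livers and scattered in CTNNB1KO livers. Its log2 values for replicates 1 to 4 were 8.53, 8.56, 7.94 and 7.90 in CTNNB1KO phenobarbital livers and 8.38, 7.60, 8.18 and 8.53 in CTNNB1KO controls. The values were 8.48, 8.44, 8.53 and 8.53 in WT phenobarbital livers and 8.63, 8.55, 8.56 and 8.51 in WT controls. Replicates 3 and 4 of the CTNNB1KO phenobarbital livers and replicates 2 and 3 of the CTNNB1KO controls were the 4 lowest arrays, while the others of both knockout groups reached the WT range or came within 0.1 of it. The means were 8.23 ± 0.36 and 8.17 ± 0.40 in CTNNB1KO phenobarbital livers and CTNNB1KO controls, and 8.50 ± 0.05 and 8.56 ± 0.05 in WT phenobarbital livers and WT controls (SD, n = 4 each). The 2 knockout groups overlapped, and so did the 2 WT groups, whose means were 0.07 apart.

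miR-101b, its relative shifted by 1 base, was lower than in WT on more of the knockout arrays. It measured 8.35, 8.28, 8.10 and 7.65 in CTNNB1KO phenobarbital livers and 8.20, 7.98, 8.53 and 8.64 in CTNNB1KO controls. WT phenobarbital livers had 8.50, 8.66, 8.73 and 8.62, and WT controls had 8.91, 8.63, 8.79 and 8.80. All 4 CTNNB1KO phenobarbital arrays lay below all 8 WT arrays, and the CTNNB1KO controls split into replicates 1 and 2 below that range and replicates 3 and 4 inside it. The means were 8.09 ± 0.32, 8.34 ± 0.30, 8.63 ± 0.09 and 8.78 ± 0.11 in the same order of groups.

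miR-365, whose mature sequence is encoded in both clusters, had 8.34, 8.48, 7.86 and 7.79 in CTNNB1KO phenobarbital livers and 7.95, 7.82, 8.34 and 8.54 in CTNNB1KO controls. WT phenobarbital livers had 8.55, 8.51, 8.54 and 8.61, and WT controls had 8.62, 8.56, 8.53 and 8.44. Replicates 3 and 4 of the treated knockouts and replicates 1 and 2 of the untreated ones were the 4 lowest arrays, and they were also the 4 lowest for miR-101b. The means were 8.12 ± 0.35 in CTNNB1KO phenobarbital livers, 8.16 ± 0.33 in CTNNB1KO controls, 8.55 ± 0.04 in WT phenobarbital livers and 8.54 ± 0.07 in WT controls.

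miR-193, the partner of miR-365 in the chromosome 11 cluster, had 6.89, 6.80, 6.26 and 6.12 in CTNNB1KO phenobarbital livers and 6.54, 7.26, 6.77 and 7.07 in CTNNB1KO controls. It had 6.93, 6.74, 7.01 and 6.92 in WT phenobarbital livers and 7.18, 7.12, 7.10 and 6.89 in WT controls. The 2 lowest arrays were again CTNNB1KO phenobarbital replicates 4 and 3. With each array centred on its median above the floor, they measured 6.44 and 6.35, so replicate 4 was no longer the lowest. CTNNB1KO control replicate 2 departed from its cluster partner: it was the highest of the 16 arrays for miR-193, and the lowest or lowest but one for miR-101a, miR-101b and miR-365. Group means were 6.52 ± 0.38, 6.91 ± 0.32, 6.90 ± 0.11 and 7.07 ± 0.13.

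miR-455 had 4.11, 4.51, 3.89 and 3.34 in CTNNB1KO phenobarbital livers and 3.82, 3.95, 4.74 and 4.78 in CTNNB1KO controls. WT phenobarbital livers had 4.27, 4.72, 4.75 and 4.82, and WT controls had 4.49, 4.55, 4.49 and 3.68. Of the arrays at or below the floor, 2 were treated knockouts, 2 were knockout controls and 1 was a WT control. The means were 3.96 ± 0.49, 4.33 ± 0.51, 4.64 ± 0.25 and 4.30 ± 0.42, and all neighbouring groups overlapped.

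**Figure D1:**
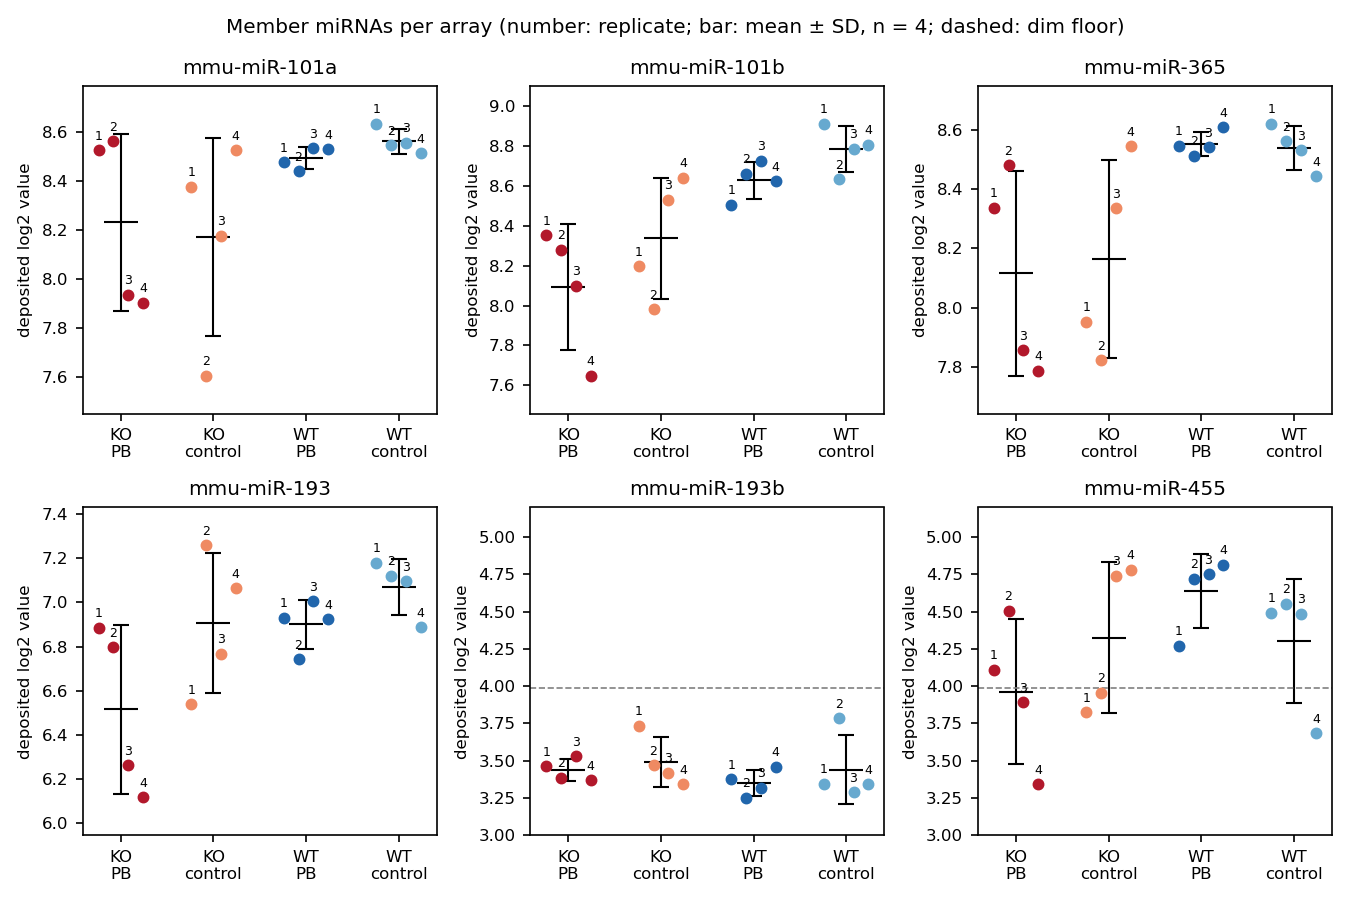
Deposited log2 value (vertical axis) of each of the 6 miRNAs on the 16 arrays by group (horizontal axis; KO, CTNNB1KO; PB, phenobarbital); numbers beside points are replicates, bars are mean ± SD of 4 arrays, and the dashed line is the dim floor of 3.98. The WT arrays of miR-101a lie between 8.44 and 8.63, while knockout arrays reach down to 7.60, and miR-193b stays under the floor on every array.

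Loss of Ctnnb1 without phenobarbital was compared first, since the choice of the miRNAs named low values in the treated knockouts and not in these groups. The other groups may have served as its reference, and earlier results of these data were known. The comparison is therefore not fully independent of the choice. No member passed in this comparison: in limma's fit to all 611 mouse miRNAs, 0 of the 6 had a Benjamini-Hochberg adjusted p under 0.05, where 5 of the 611 passed (0.818%). At an unadjusted p under 0.05, 2 of the 6 counted, miR-101b and miR-365, against 8.02% of all mouse miRNAs. miR-101b was lower by a log2 difference of -0.45 ± 0.17 (SE; 95% interval -0.80 to -0.10; adjusted p = 0.468). miR-101a differed by -0.39 ± 0.19 (adjusted p = 0.615) and miR-365 by -0.38 ± 0.17 (adjusted p = 0.583), each with 3 of 4 CTNNB1KO control arrays below all WT controls. Without CTNNB1KO control replicate 2, the difference of miR-101a was -0.20 (adjusted p = 0.890). No member had all 4 CTNNB1KO control arrays below all 4 WT controls, as 3.44% of all mouse miRNAs and 12.8% of those above the floor did.

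The other 3 miRNAs showed smaller differences between CTNNB1KO controls and WT controls. miR-193 differed by -0.16 ± 0.19 (95% interval -0.56 to 0.23; adjusted p = 0.905), miR-455 by 0.02 ± 0.26 (-0.52 to 0.56; adjusted p = 0.998) and the dim miR-193b by 0.05 ± 0.11 (adjusted p = 0.955). The difference of miR-193 was -0.04 without CTNNB1KO control replicate 1 and -0.28 without replicate 2. The 5 miRNAs above the floor had a median difference of -0.38, with 4 of 5 lower, and the other 136 miRNAs above the floor had a median of 0.02, with 47.8% lower. The fit pools each miRNA's spread over the 4 groups, while the spread itself was unequal, so the standard error can be too small where knockout arrays enter and too large between WT groups.

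Phenobarbital in WT livers was the other comparison without the treated knockouts, with the same limit, and again 0 of the 6 passed, against 17 of the 611 (2.78%; 7.53% at an unadjusted p under 0.05). miR-365 had a difference of 0.01 ± 0.17 (limma; 95% interval -0.35 to 0.38), miR-101a of -0.07 ± 0.19 (-0.46 to 0.33) and miR-101b of -0.16 ± 0.17 (-0.51 to 0.19). miR-193 differed by -0.17 ± 0.19 (-0.56 to 0.22), miR-193b by -0.09 ± 0.11 (-0.32 to 0.14) and miR-455 by 0.34 ± 0.26 (-0.20 to 0.88). The adjusted p-values of the 6 were 0.924 or higher. These intervals use the spread pooled over all 4 groups. Fitted on the 8 WT arrays alone, the standard error was 0.06 for miR-101a, 0.08 for miR-101b, 0.09 for miR-193 and 0.07 for miR-365, and none of the 6 passed (lowest limma adjusted p = 0.640). The hepatocyte-abundant list held 1 miRNA of 12 that rose in the same comparison, miR-802, by 1.38 ± 0.23 (limma adjusted p = 0.000827).

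**Figure D2:**
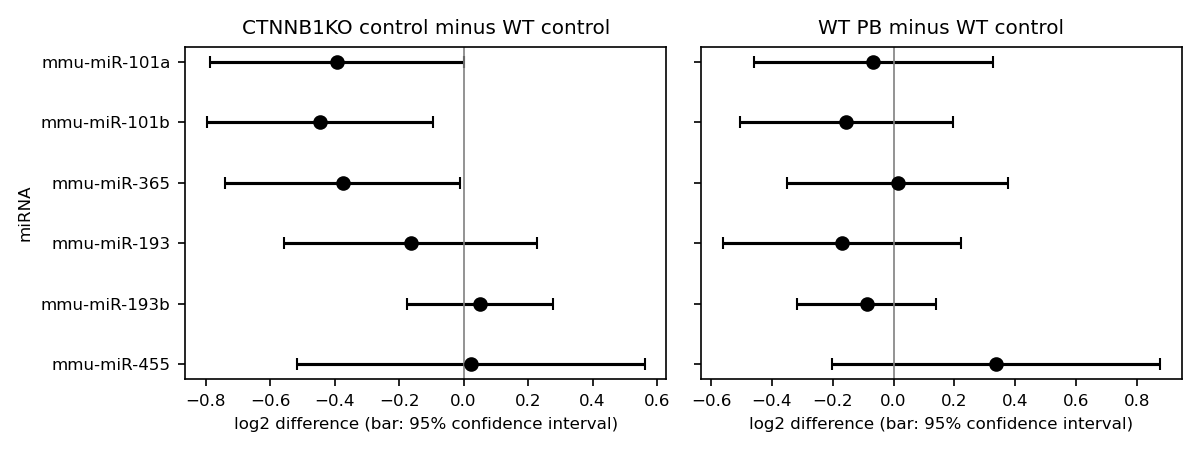
Log2 difference (horizontal axis) of each of the 6 miRNAs (vertical axis) for CTNNB1KO control minus WT control, left, and WT phenobarbital minus WT control, right, with points for limma's estimate from 4 arrays a group and bars for its 95% confidence interval before adjustment. On the left the interval of miR-101b, -0.80 to -0.10, and that of miR-365 lie below 0, and on the right every interval spans 0.

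In the treated knockout livers the values that chose the miRNAs are a description. Set against WT livers on the same diet, the mean was lower for 5 of the 6, by -0.53 for miR-101b, -0.44 for miR-365, -0.39 for miR-193, -0.26 for miR-101a and -0.68 for miR-455, and it was 0.08 higher for the dim miR-193b. miR-101b thus stood at 69.1% of the WT phenobarbital level and miR-365 at 73.9%. For these 2 of the 6, all CTNNB1KO phenobarbital arrays lay below all WT phenobarbital arrays, beside 7.04% of all mouse miRNAs and 21.3% of those above the floor. The opposite arm miR-455*, below the floor throughout, was separated in the same way, at a difference of -0.26. miR-455 came next, with 3 of 4 treated knockout arrays below all WT phenobarbital arrays, and miR-101a and miR-193 had 2 of 4. The array medians over miRNAs above the floor were lower in the treated knockouts than in WT phenobarbital livers by a shift of -0.13, and with each array centred on its median the differences were -0.14 for miR-101a, -0.26 for miR-193, -0.31 for miR-365, -0.40 for miR-101b and -0.55 for miR-455. Without the 2 treated arrays that carried muscle miRNAs, the uncentred differences were -0.58 for miR-101a, -0.71 for miR-193, -0.73 for miR-365, -0.75 for miR-101b and -1.02 for miR-455. These rest on replicates 3 and 4 alone, the lower treated arrays for all 5 miRNAs. The same 2 arrays had the highest leukocyte marker means, 6.68 and 6.65, and replicate 4 had the lowest array median, 5.04. These features and the missing muscle signal cannot be told apart on 2 arrays, and the part of each in the larger differences was not tested.

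Set against knockout livers without phenobarbital, the treated knockouts overlapped for every one of the 6, beside 1.47% of all mouse miRNAs and 2.13% of those above the floor with all 4 treated arrays lower. The mean difference was -0.39 for miR-193, -0.36 for miR-455, -0.24 for miR-101b, -0.05 for miR-365 and for miR-193b, and 0.06 for miR-101a. The array medians over miRNAs above the floor averaged 5.28 in CTNNB1KO phenobarbital livers and 5.39 in CTNNB1KO controls, a shift of -0.11. After each array was centred on that median, miR-365 and miR-193b differed by 0.06 and 0.05, so that 3 of the 6 and not 5 were lower. Without the 2 arrays that carried muscle miRNAs, the 2 remaining treated arrays gave differences of -0.25 for miR-101a, -0.46 for miR-101b, -0.34 for miR-365, -0.72 for miR-193 and -0.71 for miR-455. The muscle signal moved with the group in this way: the 2 treated arrays with it were the higher ones for all 5 miRNAs above the floor, and its part in the result was not tested. The comparisons with CTNNB1KO controls and with WT phenobarbital livers share the treated arrays.

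The arrays were spread more widely in knockout than in WT livers for 5 of the 6 miRNAs; this was not tested. For miR-101a the SD in CTNNB1KO controls was 7.96 times that in WT controls, a ratio that 7 of the 136 other miRNAs above the floor reached or exceeded (5.15%). For miR-365 it was 4.52 times, reached by 14.7% of the others, and miR-101b and miR-193 had ratios of 2.65 and 2.51, reached by 34.6% and 35.3%. The ratio of miR-455 was 1.22, reached by 65.4%, and that of the dim miR-193b was 0.73. A ratio over 1 was common, at 75.7% of the other miRNAs with a median of 1.81, so most miRNAs above the floor shared a wider spread in the knockout livers. In phenobarbital-fed livers, whose knockout arrays served in the choice, the ratios of CTNNB1KO to WT were 8.57 for miR-365 and 8.04 for miR-101a, and 80.9% of the other miRNAs had a ratio over 1.

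Blood-cell miRNAs were set beside the 6 miRNAs on each array. Of 9 leukocyte markers, 5 had a mean above the floor in at least 1 group, among them the haematopoietic miR-142-3p and the myeloid miR-223. Another, miR-342-3p, passed only through the CTNNB1KO phenobarbital livers, at 3.63 to 4.49, against 3.46 to 3.60 on the WT arrays. The mean of the 5 was 5.36, 5.70, 6.68 and 6.65 in CTNNB1KO phenobarbital livers and 6.15, 6.54, 5.16 and 5.24 in CTNNB1KO controls, against 4.88 to 5.23 in WT phenobarbital livers and 5.01 to 5.30 in WT controls. The 4 arrays with the highest leukocyte mean, treated knockout replicates 3 and 4 and untreated knockout replicates 1 and 2, were the 4 lowest arrays of miR-365 and of miR-101b. Over all 9 markers the same 4 arrays were also highest, at 4.97 to 5.35, against 4.19 to 4.67 on the others. For miR-101a, 3 of those 4 arrays were among its 4 lowest, and for miR-193, 3 of 4.

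Single markers show the size of that step. miR-223 measured 6.14, 6.61, 7.88 and 8.18 in CTNNB1KO phenobarbital livers and 7.83, 7.73, 6.00 and 5.95 in CTNNB1KO controls, against 5.50 to 6.15 in WT phenobarbital livers and 5.72 to 6.37 in WT controls. miR-142-3p measured 7.28, 7.88, 9.05 and 8.99 in CTNNB1KO phenobarbital livers, 8.04, 9.55, 6.90 and 7.38 in CTNNB1KO controls, 6.73 to 7.15 in WT phenobarbital livers and 7.15 to 7.53 in WT controls. Both markers were highest on the same 4 knockout arrays, and the remaining knockout arrays lay inside the WT range or closer to it. As a list, 0 of the 5 leukocyte markers passed between CTNNB1KO controls and WT controls.

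**Figure D3:**
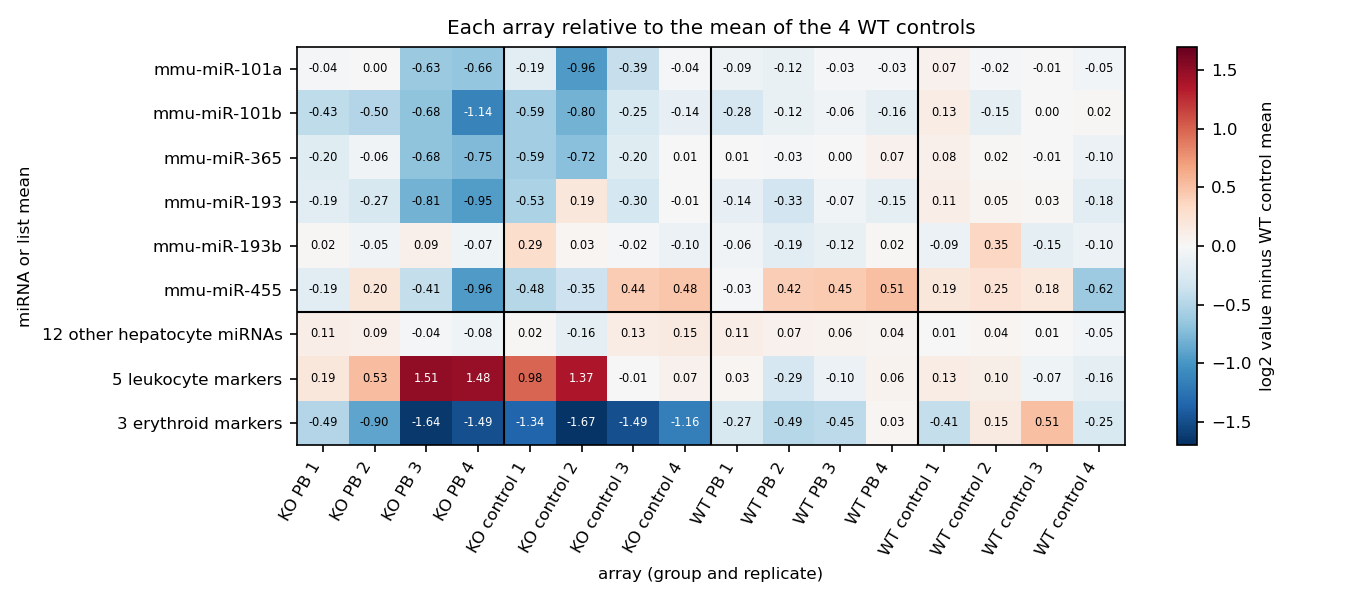
Log2 value of each array (columns, by group and replicate) minus the WT control mean for the 6 miRNAs and for the means of 12 other hepatocyte-abundant miRNAs, 5 leukocyte markers and 3 erythroid markers (rows), with blue for lower and red for higher. CTNNB1KO phenobarbital replicates 3 and 4 and CTNNB1KO control replicate 2 have leukocyte means 1.37 to 1.51 above the WT control mean. In the same columns miR-365 is at -0.75 to -0.68. The mean of the 12 other hepatocyte-abundant miRNAs stays within -0.16 and 0.15 on all arrays. Single miRNAs of that list, not shown, moved further. miR-194 was 8.75 on CTNNB1KO control replicate 2 (WT control mean 9.42), and miR-802 averaged 6.96 in WT phenobarbital livers (WT control mean 5.57).

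A test of the relation was limited to the 12 arrays that the choice did not use. Their leukocyte means fell into separate sets, 10 arrays at 4.88 to 5.30 and the CTNNB1KO control replicates 1 and 2 at 6.15 and 6.54, so no coefficient over all 12 is given here. Within the 10 arrays, the Pearson correlation with the leukocyte mean was -0.081 for miR-101b (permutation p = 0.823; Spearman rho -0.15, p = 0.680), 0.23 for miR-101a (p = 0.531; rho 0.50, p = 0.146) and 0.39 for miR-365 (p = 0.262; rho 0.79, p = 0.00895). For miR-193 it was 0.65 (p = 0.0427; rho 0.72, p = 0.0233), for miR-455 0.20 (p = 0.570; rho 0.19, p = 0.608) and for the dim miR-193b 0.55 (p = 0.0972; rho 0.64, p = 0.0541). None of the 6 had an adjusted p under 0.05 over the 12 relations of both marker sets, the lowest being 0.233 for r and 0.107 for rho.

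Within the 8 WT arrays, miR-365 was higher where the leukocyte markers were higher, opposite to its position on the 2 knockout controls. The Pearson correlation was 0.75 for miR-365 (exact permutation p = 0.0308, adjusted 0.185), with a Spearman rho of 0.93 (exact permutation p = 0.00223, adjusted 0.0268). This positive rho was the only one of the 12 relations to pass. The WT-only relations were chosen after seeing the data, and they were not computed with arrays centred on their medians. On these arrays miR-365 spanned only 8.44 to 8.62. Without the 2 WT arrays farthest from the median, r was 0.79 and rho 0.89 (exact permutation p = 0.0333, adjusted 0.35). miR-193 had an r of 0.76 (exact permutation p = 0.0290, adjusted 0.185; rho 0.79, p = 0.0279) and miR-101a an r of 0.68 (exact permutation p = 0.0612, adjusted 0.245; rho 0.67, p = 0.0831), and without the same 2 arrays r was 0.32 for miR-193 and -0.0092 for miR-101a. miR-455 had an r of 0.13 (exact permutation p = 0.759; rho 0.095), and miR-101b had -0.023 (exact permutation p = 0.957; rho -0.071), which was -0.78 without those 2 arrays (exact permutation p = 0.075, adjusted 0.225). Among the 12 arrays, high leukocyte markers were thus confined to 2, CTNNB1KO control replicates 1 and 2, where miR-101a, miR-101b, miR-365 and miR-455 were low. For miR-101a the low value was mainly that of replicate 2. Replicate 1, at 8.38, lay above replicate 3, at 8.18 with a leukocyte mean of 5.16. The lowest miR-455 of the 12, 3.68, was on WT control replicate 4, with a leukocyte mean of 5.01. The part of leukocyte RNA in these values was not tested. Stellate or mesenchymal markers, of which 0 of 4 passed between CTNNB1KO controls and WT controls, had a mean of 5.14 ± 0.31 in CTNNB1KO phenobarbital livers and 5.19 ± 0.35 in CTNNB1KO controls, and of 4.80 ± 0.11 in WT phenobarbital livers and 4.84 ± 0.12 in WT controls (SD, n = 4 each). Over 3 biliary or other epithelial markers, of which 0 passed, the means were 5.11 ± 0.19, 5.10 ± 0.04, 4.75 ± 0.15 and 4.67 ± 0.10, and the part of either in the results was not tested.

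**Figure D4:**
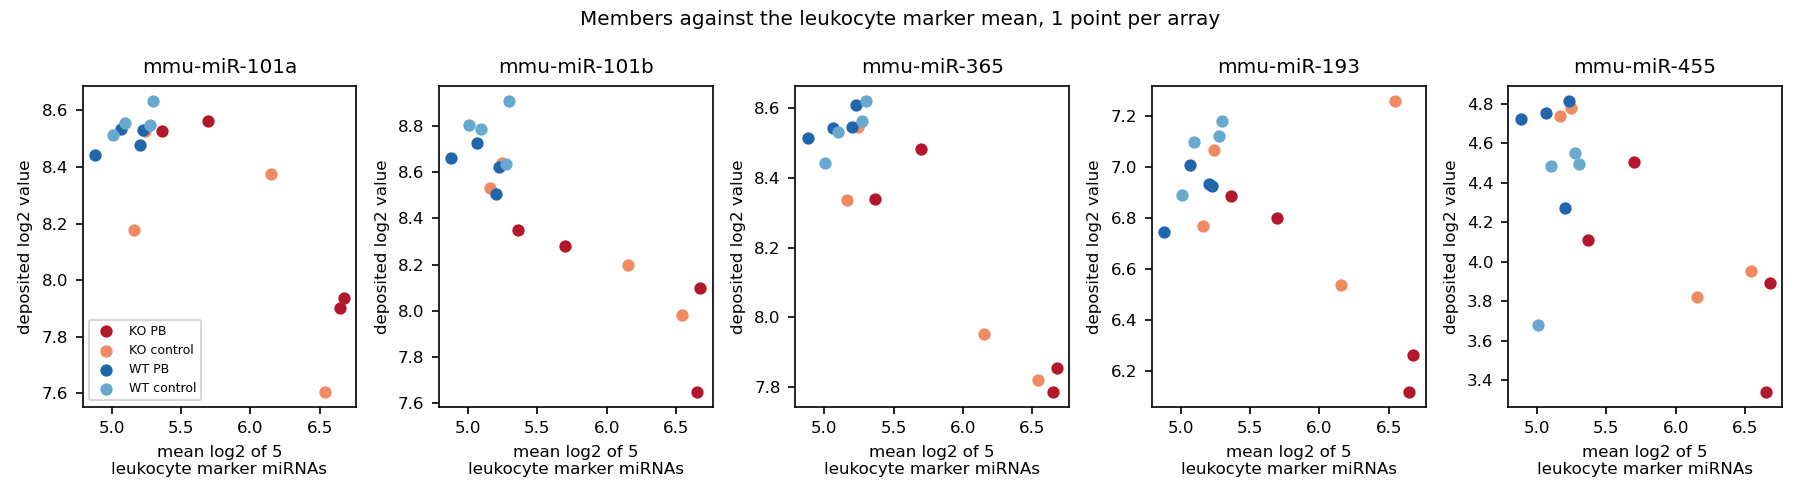
Deposited log2 value of 5 of the miRNAs (vertical axes) against the mean log2 value of 5 leukocyte marker miRNAs (horizontal axes), 1 point per array, coloured by group. Arrays with a leukocyte mean above 6 are all CTNNB1KO, and the 8 WT arrays lie between 4.88 and 5.30; the CTNNB1KO control array at 6.54 is the lowest for miR-101a and the highest for miR-193.

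Erythroid miRNAs were lower in the knockout livers. The mean of miR-451, miR-144 and miR-486 was 7.46, 7.05, 6.30 and 6.46 in CTNNB1KO phenobarbital livers and 6.61, 6.28, 6.46 and 6.79 in CTNNB1KO controls, against 7.46 to 8.46 on the 8 WT arrays. In CTNNB1KO controls, 2 of the 3 fell relative to WT controls. miR-451 had a log2 difference of -1.78 (limma adjusted p = 0.00128) and miR-144 one of -1.84 (limma adjusted p = 0.00378). miR-486 differed by -0.62 (adjusted p = 0.217). As the genotypes do not overlap in this mean among the tested arrays, a relation over all of them cannot be told apart from genotype. Within the 8 WT arrays, the Pearson correlation of the 6 miRNAs with the erythroid mean was -0.043 to 0.42, and none passed (exact permutation, lowest adjusted p = 0.715).

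The miRNAs followed each other over the 16 arrays to unequal degrees. As a description over arrays that share one scaling and, in part, the choice, Pearson's r was 0.89 between miR-101b and miR-365, 0.88 between miR-101a and miR-365 and 0.79 between miR-101a and miR-101b. The cluster partners miR-193 and miR-365 had 0.62, and miR-193 and miR-101a had 0.39. With each group's mean removed the first 3 values were 0.85, 0.84 and 0.76, so these pairs also varied together within groups.

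Among the 140 other miRNAs above the floor, the patterns most like miR-101a were those of miR-30e (r = 0.91), miR-365 (0.88) and miR-27b (0.85), and the least like was miR-199a-3p (-0.83). miR-101b was most like miR-27b (0.95), miR-103 (0.90) and miR-365 (0.89), and least like miR-146a (-0.89), a leukocyte marker. miR-365 was most like miR-27b (0.91), miR-103 (0.91) and miR-101b (0.89), and least like miR-223 (-0.91). For miR-193 the most like were miR-30c (0.89), miR-23b (0.84) and miR-98 (0.81), and the least like was miR-142-5p (-0.76). miR-455 was most like miR-185 (0.81), miR-365 (0.77) and miR-361 (0.74), and least like let-7i (-0.75). miR-27b thus stood among the 3 most like of 3 of the 5 miRNAs, and a leukocyte marker was the least like of 3 of them. These correlations cover all 16 arrays, among them the CTNNB1KO phenobarbital arrays that served in the choice, and are a description without a test. Within the 8 WT arrays, r with the leukocyte mean was -0.023 for miR-101b, 0.75 for miR-365 and 0.76 for miR-193.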

How the data were processed

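Per the submitters' processing notes, the authors processed the Agilent miRNA arrays with RMA and limma and deposited log2 values per feature and array. No version, filter or background method is stated there. Per the labels' protocols, 100 ng of Qiazol-extracted liver RNA was labelled. RMA as usually run equalises the arrays, and a change common to most miRNAs would then be lost. Scanner intensities, slides and detection calls were not used here, and the number of arrays limits the precision.

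Groups and replicates came from the sample titles. From the deposited log2 values, limma 3.58.1 in R 4.3.3 fitted 1 mean per group over 16 arrays and 611 mouse miRNAs (viral features left out), with a trended eBayes step, two-sided p-values and Benjamini-Hochberg adjustment at 0.05. Relations between arrays used SciPy 1.17.1 with 100000 permutations, or all 40320 orders within WT, two-sided. The members and marker lists were chosen with earlier results of these data known. Named miRNAs are the members, their opposite arms, the 3 most and 1 least correlated miRNAs above the floor, and preset markers. The fit was tested on simulated data. Alternatives varied scaling, floor, weights, variance prior, replicates and pairing; leaving out the muscle-bearing arrays, the WT-only relations and the fits to 2 groups were chosen after seeing the data.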

Additional observations from a re-analysis of the deposited data

Results flagged for a closer look

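Among 64 sets of 4 arrays (the 6 miRNAs, their opposite arms and the marker means in each group), 3 had 1 array far from the other 3, where Dixon's criterion flags about 1 in 20 by chance. miR-455 measured 3.68 on WT control replicate 4 and 4.49 to 4.55 on the other WT controls, so the WT control mean of this miRNA rests in part on that array. miR-193b measured 3.79 on WT control replicate 2 and 3.29 to 3.35 on the others, all below the dim floor. The mean of the 2 endothelial markers was 7.09 on CTNNB1KO control replicate 2, the array with the lowest miR-101a and the highest miR-193, and 7.41 to 7.47 on the other CTNNB1KO controls.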

How the results depend on the processing

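In both tested comparisons 0 of the 6 miRNAs passed under each of the 23 alternatives, leave-one-out fits included (0 to 0), with a lowest adjusted p of 0.0981 (miR-101b, CTNNB1KO control against WT control, tested over miRNAs above the floor alone). Deviations of same-numbered arrays correlated at -0.21 to 0.05 in WT, and at 0.05 to 0.40 between control genotypes, where 2 of 4 pairs exceeded 0.1. Of 8 arrays, 0 and 4 were closest to their own number, so the numbers were not taken to pair arrays. The fit with the replicate number as a block called 0 members, with 17 and 4 of all miRNAs. Of all miRNAs, phenobarbital in WT called 29 with array weights (17 without). CTNNB1KO against WT in controls called 9 with array weights, 8 over miRNAs above the floor alone, and 3 without any 1 WT control or with only the 2 groups compared, against 5 as reported and 4 to 7 in the remaining alternatives. Treated minus untreated knockouts were lower for 5 of 6, for 3 with centred arrays and for 4 to 6 when 1 array was left out; treated knockout minus WT phenobarbital stayed at 5 (5 to 5). Over 12 arrays, Pearson's r passed for 6 of the 12 blood-marker relations, rho for 2, and r for 0 with group means removed, without the 2 farthest arrays or within WT; leaving out 1 array gave 0 to 7, with 0 without CTNNB1KO control replicate 2 and 3 without replicate 1. Pooled r with the leukocyte mean was -0.75 for miR-101a, against 0.23 without the 2 farthest arrays and 0.68 in WT, and -0.90 for miR-365, against 0.39, 0.75 and a rho of 0.035. With the erythroid mean, miR-101b had 0.69 pooled and -0.043 in WT. miR-365 and miR-101a in WT were positive on uncentred values, and rho passed there for miR-365 alone.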
